A study of Homo sapiens with 2 samples.

Results

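The genes described here encode the core of the actin cytoskeleton: the cytoplasmic actins, the proteins that bind actin monomers or sever filaments, the Arp2/3 nucleator, myosin II heavy and light chains, tropomyosins, the crosslinkers alpha-actinin and filamin, and the ezrin, radixin and moesin linkers. They were taken by symbol from the protein-coding genes outside the Y chromosome. That rule used no measured value, but the set was chosen with earlier results of these data known. The symbols were TPM1 to TPM4, the numbered MYL and MYH genes, ACTN1 to ACTN4, the ARPC genes, ACTR2 and ACTR3 with their relatives, PFN1, PFN2, CFL1, CFL2, the TMSB genes, the FLN genes, ACTB, ACTG1, EZR, RDX and MSN. This gave 62 of the 58735 genes in the table, with 61 distinct symbols because TMSB15B stands in 2 rows. Of these, 37 had a mean of at least 1 FPKM (fragments of a gene relative to its length in kilobases and to library size) over both libraries and are called measured here. The other 25 were lower, 8 of them without a single fragment in either library.

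The study sequenced mRNA of A2780, an established cell line from an ovarian cancer, in 1 library labelled shControl (genotype WT, empty vector) and 1 labelled shJAM3 (genotype JAM3 knockdown, stable; the titles name a short hairpin and the design text an siRNA). Both were grown in standard culture to logarithmic phase, and the sources used here do not say whether the knockdown cells are 1 clone or a pool. The libraries held 15570262 and 16455079 fragments assigned to genes. A group of 1 leaves no spread between cultures to test against, so no p-value is given. Every ratio compares these libraries, shJAM3 over shControl, and its bracketed 95% interval covers counting error only. JAM3 itself had 18 and 14 fragments, a ratio of 0.716 (0.330 to 1.52), so these counts show no difference in the targeted gene beyond counting error. The design text states a loss of over 70%, which read as a ratio of RNA is under 0.300, and the lower bound of 0.330 lies above it. JAM3 was barely detected, at 0.215 FPKM in shControl and 0.154 FPKM in shJAM3, so these few counts are a weak check of the stated loss. Directions below therefore refer to the libraries as labelled.

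Actin filaments form when monomers add to a nucleus, and most monomers in a cell are held by thymosins and profilins until they are used. Arp2/3 starts new filaments as branches on existing ones, cofilin severs old filaments, and tropomyosins coat filaments and influence which motors and severing factors reach them. Non-muscle myosin II, a hexamer of heavy chains with essential and regulatory light chains, pulls filaments past one another. Alpha-actinins and filamins tie filaments into bundles and nets, and the ezrin, radixin and moesin (ERM) proteins join them to the plasma membrane. Together these proteins set cell shape, cortical tension and movement, and they anchor the junctions at which JAM proteins sit.

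The summed level of the set was nearly the same in both libraries. Summed over all 62 genes, the level was 5447.6 FPKM in shControl and 5461.9 FPKM in shJAM3, and the set took 1.77% and 1.68% of all assigned fragments. The median log2 ratio of the 37 measured members, on the scale log2(FPKM + 1) used for all log2 ratios below, was -0.07, against -0.01 for 10499 measured protein-coding genes. Differences lay within the set. Of the measured members 16 were higher (43.2%) and 21 lower (56.8%), against 49.4% and 50.6% of measured protein-coding genes. Families separated: all 3 myosin heavy chains were lower, while 4 of 5 light chains and 3 of 4 tropomyosins were higher.

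A rule of size stands in place of a test. By a ratio of at least 1.5 on the FPKM + 1 scale, 1 member was higher (PFN2) and 4 were lower, among them MYH14, MYH9 and ARPC1B. The same rule took 5.12% of measured protein-coding genes as higher and 9.3% as lower, against 2.7% and 10.8% of the members, so the members passed it about as often as other genes. On this scale no member reached 2-fold, which 0.391% of the measured protein-coding genes did upwards and 1.41% downwards. Without the added 1, which draws low genes towards no difference, CFL2 and MYH10 also lay past 1.5, and MYH14 and ARPC1B past 2. The 1.5-fold rule then took 5.41% of the members as higher and 13.5% as lower, against 9.52% and 12.7% of measured protein-coding genes. Counting intervals lay above 1 for 16 members (43.2%) and below 1 for 18 (48.6%), against 34.5% and 36.8% of measured protein-coding genes. The members were more deeply counted, with a median of 2919 fragments in shControl against 631 for all measured protein-coding genes, which narrows their intervals.

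**Figure D1:**
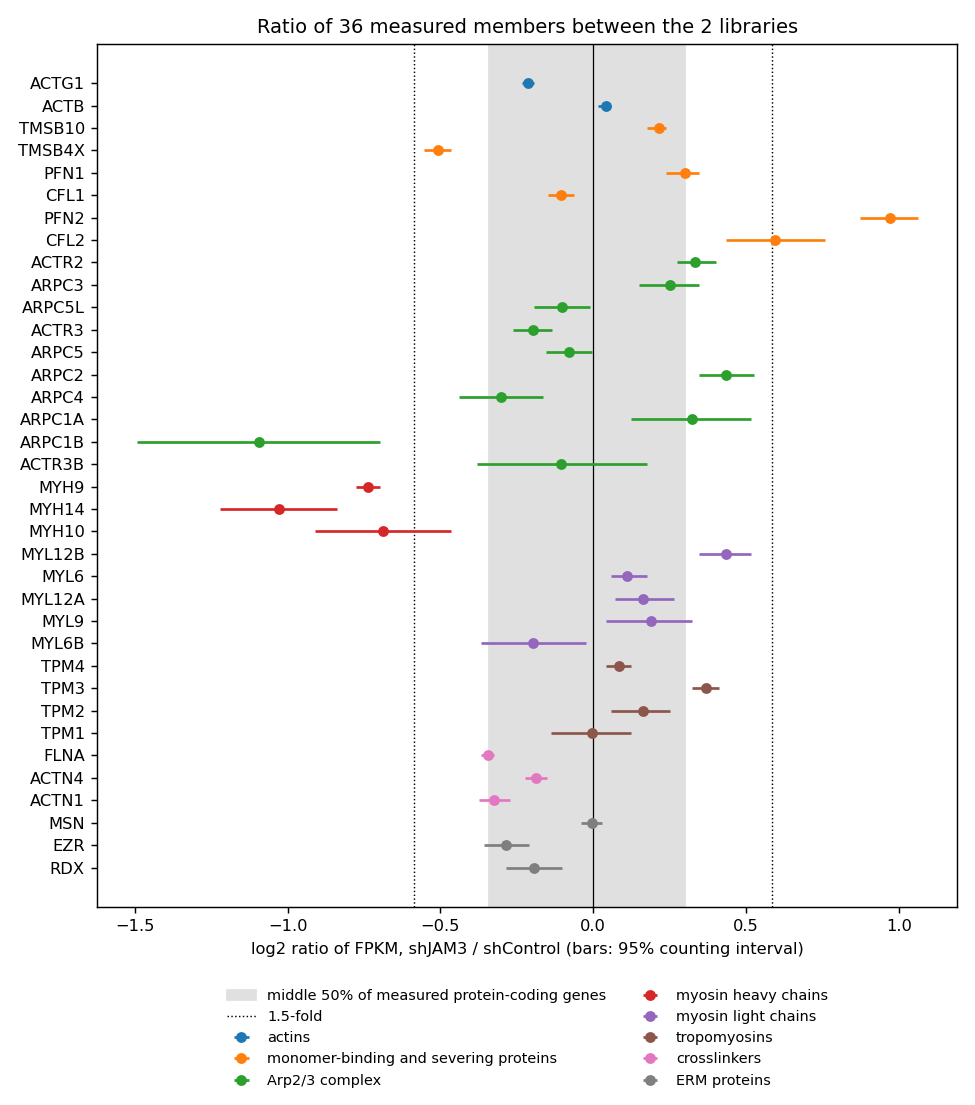
Log2 ratio of FPKM (shJAM3 over shControl, without the added 1) on the horizontal axis for 36 measured members, coloured by role, with bars for the 95% counting interval and grey for the middle 50% of all measured protein-coding genes. The 3 myosin heavy chains and ARPC1B lie left of the lower 1.5-fold line, and PFN2, with CFL2 at the line, lies furthest to the right.

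The ratios of all genes followed the GC content of their transcripts, and the members did so too. Among 10496 measured protein-coding genes the Pearson correlation of the log2 ratio with GC was -0.50 across genes, and among the 37 members it was -0.49; the points share the same 2 libraries. The median log2 ratio went from 0.23 in the 1050 genes with the lowest GC to -0.44 in the 1050 with the highest. For that reason a GC-centred log2 ratio, the value minus the median of genes of like GC, is given for the members below. Centred in this way, PFN2 was still past 1.5-fold at 0.76, and none of the 4 lower members was. By this measure 3.66% of measured protein-coding genes were at least 1.5-fold higher and 5.25% lower, and 0.324% and 0.696% passed 2-fold, which no member did. With log10 length of the longest transcript the correlation was -0.42 among the 37 members, against -0.04 among the 10496 genes. Length centring, added after seeing the data, took the median of the myosin heavy chains from -0.73 to -0.66. It took that of the light chains from 0.16 to 0.04 and that of the tropomyosins from 0.12 to 0.08. TMSB10 went from 0.21 to 0.10 and PFN1 from 0.29 to 0.18. The part of GC or length in each difference was not tested.

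**Figure D2:**
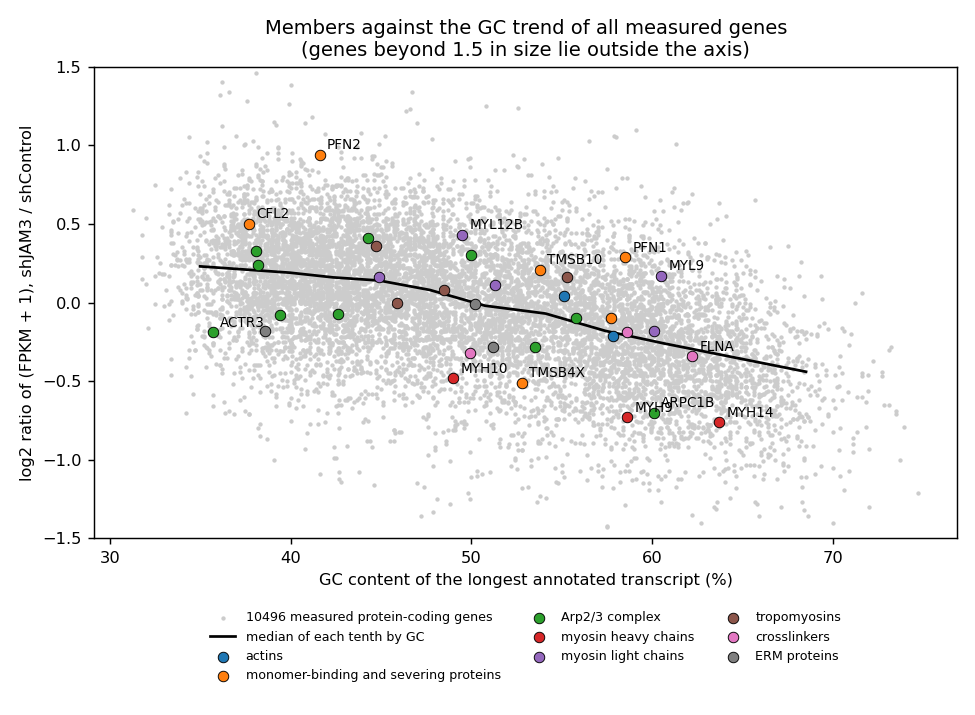
Log2 ratio of FPKM + 1 (shJAM3 over shControl) against GC content of the longest annotated transcript in percent, with grey points for measured protein-coding genes, a black line for the median of each of 10 groups by GC, and coloured points for 36 measured members. MYH9, MYH10, MYH14 and TMSB4X lie below the line, and PFN2, PFN1, MYL9 and MYL12B above it.

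The myosin II heavy chains showed the clearest family difference. MYH9, the heavy chain of myosin IIA and by far the most abundant of the 3, was at 91.6 FPKM in shControl and 55.0 FPKM in shJAM3. Its ratio was 0.600 (0.584 to 0.617), on 12688 and 8269 fragments. MYH10, the myosin IIB heavy chain, was at 3.00 FPKM in shControl and 1.86 FPKM in shJAM3, a ratio of 0.621 (0.532 to 0.725). MYH14, the myosin IIC heavy chain, was at 4.10 FPKM in shControl and 2.01 FPKM in shJAM3, a ratio of 0.490 (0.429 to 0.559). So all 3 were lower, with ratios from 0.490 to 0.621, and the share of MYH9 in their summed FPKM barely moved, from 92.8% to 93.4%.

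The GC content of the 3 heavy-chain transcripts differed, yet all stayed lower after centring. MYH10, at 49.0% GC, had a log2 ratio of -0.48 and a centred value of -0.55. MYH9, at 58.6% GC, went from -0.73 to -0.52, and MYH14, at 63.7% GC, from -0.76 to -0.38. These centred values lay at percentiles 6.13, 7.40 and 13.8 of measured protein-coding genes. The fragment ratios of MYH9 and MYH10 differed from each other by a factor of 0.966 (0.828 to 1.13), an interval that includes 1. Without centring, MYH14 was lower than either, with factors of 1.22 (1.07 to 1.40) for MYH9 and 1.27 (1.04 to 1.55) for MYH10 relative to it. After centring it was the least low of the 3.

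MYH9 lies on chromosome 22 at 36281277 to 36388067 (minus strand), MYH10 on chromosome 17 at 8474205 to 8630761 (minus strand) and MYH14 on chromosome 19 at 50188186 to 50310544 (plus strand) of GRCh38. Sequence before a RefSeq start of each is shown because all 3 were lower. Each run is 150 bases of GRCh38.p14 without an annotated exon, 5′ to 3′ on the gene's strand, ending 100, 36 and 0 bases before the start of MYH9, MYH10 and MYH14, with GC boxes (GGGCGG, or CCGCCC on the other strand) in capitals:
MYH9, chr22:36388068-36388217, minus strand: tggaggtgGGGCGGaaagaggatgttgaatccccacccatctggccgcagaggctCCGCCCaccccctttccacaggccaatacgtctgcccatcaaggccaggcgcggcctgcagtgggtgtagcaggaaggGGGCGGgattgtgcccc
MYH10, chr17:8630762-8630911, minus strand: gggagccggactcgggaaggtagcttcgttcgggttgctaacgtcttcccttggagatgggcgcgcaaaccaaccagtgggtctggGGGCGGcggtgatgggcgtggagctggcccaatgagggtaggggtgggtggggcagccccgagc
MYH14, chr19:50203472-50203621, plus strand: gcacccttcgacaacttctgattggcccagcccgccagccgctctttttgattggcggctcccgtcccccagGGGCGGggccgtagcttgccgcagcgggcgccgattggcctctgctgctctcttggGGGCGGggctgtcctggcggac

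The windows held 3, 1 and 2 GC boxes for MYH9, MYH10 and MYH14, and that of MYH14 lies inside the annotated gene, before a later start. This letter pattern is common: counted over windows from 250 bases before to 50 after each start, 68.5% of promoters of measured protein-coding genes held it, and 81.6% of the promoters of measured members. A match is a description of the letters and says nothing of a bound factor.

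Of the 5 measured light chains, the 3 regulatory ones and MYL6 were higher and MYL6B was lower. Their median log2 ratio was 0.16, also after GC centring, and 0.04 after centring on transcript length. MYL12B, the most abundant regulatory light chain, was at 66.7 FPKM in shControl and 89.9 FPKM in shJAM3, a ratio of 1.35 (1.27 to 1.43). MYL12A, its neighbour 5242 bases away on chromosome 18, was at 32.7 FPKM in shControl and 36.7 FPKM in shJAM3, a ratio of 1.12 (1.05 to 1.20). MYL9, the regulatory chain typical of smooth muscle and stress fibres, was at 17.5 FPKM in shControl and 19.9 FPKM in shJAM3, a ratio of 1.14 (1.03 to 1.25). GC centring placed MYL12B at 0.42 and MYL9 at 0.48 on the log2 scale, but MYL12A only at 0.04. MYL12A and MYL12B are near copies, yet only 6.10% and 5.86% of their distinct 50-base stretches occur in the transcripts of another gene.

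The essential light chains differed little. MYL6 was at 50.1 FPKM in shControl and 54.3 FPKM in shJAM3, a ratio of 1.08 (1.04 to 1.13). MYL6B was at 11.5 FPKM in shControl and 10.1 FPKM in shJAM3, a ratio of 0.873 (0.776 to 0.983). GC centring brought MYL6 from 0.11 to 0.16 and MYL6B from -0.18 to 0.03 on the log2 scale. The pair shares 89 exon bases on the same strand, and 11.2% of the exon bases of MYL6 lie opposite SMARCC2, so without strand information some of their fragments cannot be assigned to either gene. None of the 5 measured light chains reached 1.5-fold in either direction.

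The balance of transcripts for the myosin II hexamer differed between the libraries. The heavy chains summed to 98.7 and 58.9 FPKM, the regulatory light chains to 116.9 and 146.4 FPKM and the essential light chains, nearly level, to 61.6 and 64.4 FPKM. Regulatory light chains summed to 1.18 times the heavy chains in shControl and to 2.49 times in shJAM3 (FPKM per FPKM). The factor between the libraries was 2.10 (2.00 to 2.20). Essential light chains went from 0.624 to 1.09 times the heavy chains, a factor of 1.75 (1.67 to 1.84). These factors do not depend on how the libraries were scaled, although they carry the differences in GC and length between heavy and light chain transcripts. With the length of the longest transcript in place of the exon union, the regulatory chains stood at 1.74 and 3.61 times the heavy chains.

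**Figure D3:**
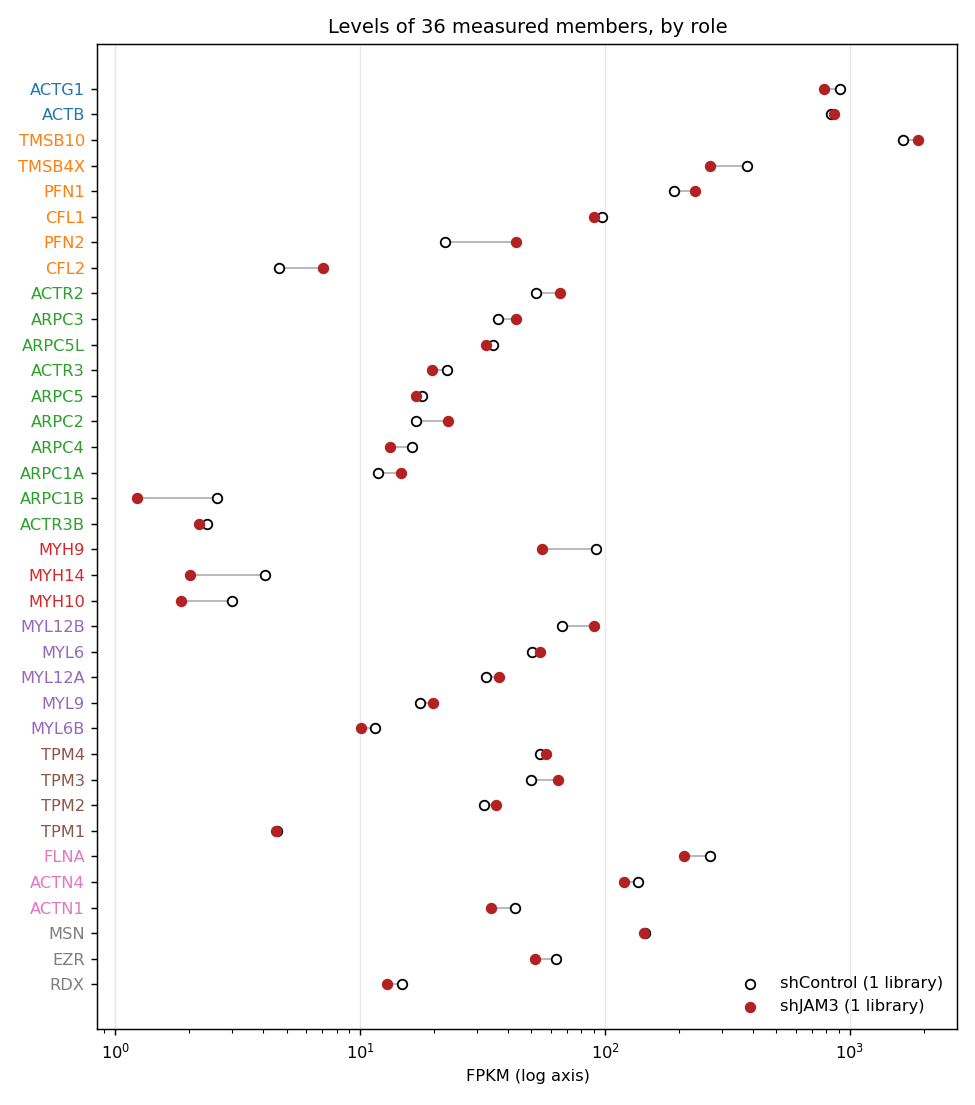
FPKM on a log axis for 36 measured members, with open circles for the shControl library and filled circles for the shJAM3 library, grouped by role from the actins at the top to the ERM proteins at the bottom. Levels span from TMSB10 at 1645.7 and 1901.4 FPKM to ARPC1B at 2.60 and 1.22 FPKM, and most pairs of circles lie close together.

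The cytoplasmic actins were among the most abundant transcripts and differed little. ACTB was at 833.6 FPKM in shControl and 856.4 FPKM in shJAM3, a ratio of 1.03 (1.01 to 1.04). ACTG1 was at 911.9 FPKM in shControl and 786.0 FPKM in shJAM3, a ratio of 0.862 (0.850 to 0.874). ACTG1 thus stood above ACTB in shControl and below it in shJAM3, and its share of the summed actin FPKM went from 52.2% to 47.9%. That crossing depends on gene length: per longest transcript, ACTG1 had 48.1% and 43.7%, below ACTB in both libraries. GC centring brought ACTG1 to 0.00 and ACTB to 0.12 on the log2 scale. The fragment ratio of ACTB relative to ACTG1 was 1.19 (1.17 to 1.21) times higher in shJAM3.

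Among the monomer-binding proteins the beta-thymosins diverged. TMSB10, thymosin beta 10 and rank 6 by level among measured protein-coding genes, was at 1645.7 FPKM in shControl and 1901.4 FPKM in shJAM3, a ratio of 1.16 (1.13 to 1.18). TMSB4X, thymosin beta 4, was at 379.7 FPKM in shControl and 266.9 FPKM in shJAM3, a ratio of 0.703 (0.682 to 0.724). Their transcripts have like GC content, 53.8% for TMSB10 and 52.8% for TMSB4X, and the centred log2 ratios were 0.25 and -0.46. The fragment ratio of TMSB10 relative to TMSB4X was 1.64 (1.58 to 1.71) times higher in shJAM3, so the share of TMSB4X in the summed thymosin FPKM went from 18.7% to 12.3%.

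TMSB4X has processed pseudogenes that can share its fragments. The 6 named copies took 465 fragments in shControl and 395 in shJAM3, which is 4.68% and 5.20% of the TMSB4X counts. Nearly all came from TMSB4XP8, with 460 and 382 fragments, which was lower in shJAM3 as TMSB4X was. TMSB15A had 1 fragment in shControl and 0 in shJAM3, and both TMSB15B rows had none.

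Profilins, which load actin monomers for addition to filament ends, were both higher. PFN1 was at 190.6 FPKM in shControl and 233.7 FPKM in shJAM3, a ratio of 1.23 (1.18 to 1.27). PFN2, the form best known from neurons, was at 22.2 FPKM in shControl and 43.4 FPKM in shJAM3, a ratio of 1.96 (1.83 to 2.09) on 1265 and 2686 fragments. PFN2, on chromosome 3 at 149964904 to 150050788 (minus strand), was the member furthest above 1, at percentile 99.5 of the log2 ratios of measured protein-coding genes and at 98.8 after GC centring. PFN1 has a GC-rich transcript (58.5%), and centring raised its log2 ratio from 0.29 to 0.50. The share of PFN2 in the summed profilin FPKM went from 10.4% to 15.7%.

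Cofilins showed the same kind of shift towards the minor form. CFL1, the general form, was at 97.3 FPKM in shControl and 90.4 FPKM in shJAM3, a ratio of 0.929 (0.902 to 0.957). CFL2, the form best known from muscle, was at 4.65 FPKM in shControl and 7.02 FPKM in shJAM3, a ratio of 1.51 (1.35 to 1.69). Relative to CFL1, the CFL2 fragment ratio was 1.62 (1.45 to 1.82) times higher. These transcripts differ in GC (57.7% for CFL1 and 37.7% for CFL2), and the centred log2 ratios were 0.11 and 0.27, so they lay closer together after centring. Of the CFL1 exon bases, 12.9% lie opposite MUS81.

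Set against summed actin FPKM, profilins went from 0.122 to 0.169, a factor of 1.38 (1.34 to 1.43). Beta-thymosins went from 1.16 to 1.32 times the actins, a factor of 1.14 (1.11 to 1.16). The cofilin balance, 0.0584 and 0.0593, had a factor of 1.02 (0.986 to 1.05), an interval that includes 1. Thymosin and actin levels compare only per annotated length: per longest transcript, the thymosins stood at 0.805 and 0.909 times the actins.

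**Figure D4:**
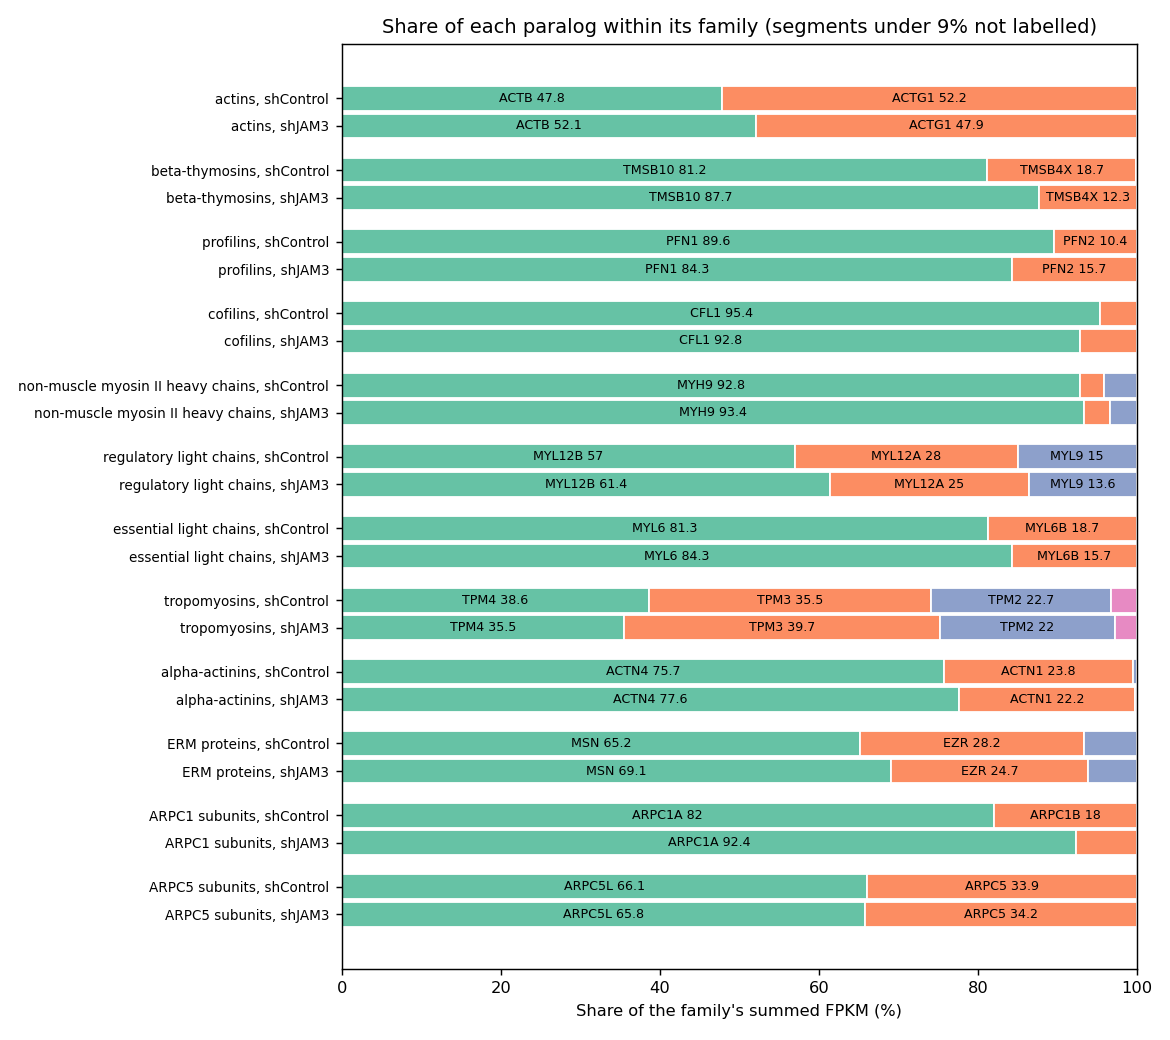
Share of each gene in the summed FPKM of its family, in percent, with the shControl library above the shJAM3 library in each pair of bars. Among the families drawn, the widest shifts are from ARPC1B to ARPC1A (18.0% to 7.63% for ARPC1B), from TMSB4X to TMSB10 and from PFN1 to PFN2, while the 3 myosin heavy chains and the ARPC5 pair kept nearly the same shares.

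The Arp2/3 complex has 7 subunits, and its genes went in both directions. Of 10 measured genes 4 were higher and 6 lower, with a median log2 ratio of -0.07. ACTR2, which encodes Arp2, was at 52.2 FPKM in shControl and 65.7 FPKM in shJAM3, a ratio of 1.26 (1.21 to 1.32). ACTR3, which encodes Arp3, was at 22.5 FPKM in shControl and 19.6 FPKM in shJAM3, a ratio of 0.872 (0.834 to 0.911). The partners thus moved apart, with a factor of 1.44 (1.36 to 1.54) between them, although both transcripts are GC-poor (38.1% and 35.7%). GC centring brought ACTR2 from 0.33 to 0.10 and ACTR3 from -0.19 to -0.42 on the log2 scale. ACTR3B, a close relative of ACTR3, was at 2.37 FPKM in shControl and 2.20 FPKM in shJAM3, and the interval of its ratio included 1 (0.768 to 1.13); its centred log2 ratio was -0.21.

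Among the structural subunits, ARPC2 and ARPC3 were higher and ARPC4 lower. ARPC2 was at 16.9 FPKM in shControl and 22.8 FPKM in shJAM3, a ratio of 1.35 (1.27 to 1.44) and a centred log2 ratio of 0.25. ARPC3 was at 36.5 FPKM in shControl and 43.4 FPKM in shJAM3, a ratio of 1.19 (1.11 to 1.27), and its centred log2 ratio was 0.01. ARPC4, which with ARPC2 forms the core of the complex, was at 16.3 FPKM in shControl and 13.2 FPKM in shJAM3, a ratio of 0.811 (0.737 to 0.893) and a centred log2 ratio of -0.24. The value of ARPC4 is uncertain, since 15.0% of its exon bases are shared with the readthrough gene ARPC4-TTLL3, listed at 0 in both libraries, and 13.3% lie opposite TADA3. ARPC5 and ARPC5L, alternative forms of the smallest subunit, had ratios of 0.946 and 0.932, with a factor of 1.02 (0.936 to 1.10) between them, an interval that includes 1. Their transcripts differ in GC (39.4% for ARPC5 and 55.8% for ARPC5L), and centring parted them, to -0.26 for ARPC5 and 0.06 for ARPC5L on the log2 scale.

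The alternative forms of the ARPC1 subunit diverged the most of all paralogs. ARPC1A was at 11.8 FPKM in shControl and 14.7 FPKM in shJAM3, a ratio of 1.25 (1.09 to 1.43). ARPC1B was at 2.60 FPKM in shControl and 1.22 FPKM in shJAM3, a ratio of 0.469 (0.355 to 0.617) on only 159 and 81 fragments. Relative to ARPC1B, the ARPC1A fragment ratio was 2.66 (1.97 to 3.58) times higher in shJAM3. GC centring left ARPC1A at 0.29, from 0.30, and brought ARPC1B from -0.70 to -0.49 on the log2 scale. The genes lie 7986 bases apart on chromosome 7, both on the plus strand (ARPC1A at 99325910 to 99366262, ARPC1B at 99374249 to 99394816). The annotated readthrough AC004922.1, with 2 and 4 fragments, covers 58.4% of the ARPC1A exon bases and 32.4% of those of ARPC1B, so fragments there may have been left uncounted, and both levels are uncertain.

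Counting both forms of a subunit together, the 7 subunits lay between 14.4 FPKM (ARPC1) and 52.8 FPKM (ARPC5) in shControl. In shJAM3 they lay between 13.2 FPKM (ARPC4) and 65.7 FPKM (Arp2). The highest subunit was 3.66 times the lowest in shControl and 4.96 times in shJAM3. ARPC1 and ARPC4, the lowest subunits, are also those with exons shared with a readthrough gene.

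Tropomyosins were level or slightly higher. TPM3 was at 50.0 FPKM in shControl and 64.4 FPKM in shJAM3, a ratio of 1.29 (1.25 to 1.33) and a centred log2 ratio of 0.20. TPM2 had a ratio of 1.12 (1.04 to 1.19) and TPM4 of 1.06 (1.03 to 1.09). TPM1 was at 4.55 FPKM in shControl and 4.54 FPKM in shJAM3, with an interval that included 1 (0.909 to 1.09). Centred log2 ratios were 0.24 for TPM2, 0.01 for TPM4 and -0.13 for TPM1. TPM3 thus replaced TPM4 as the tropomyosin with the highest FPKM, at 39.7% of the family in shJAM3 against 35.5% in shControl. Per longest transcript TPM4 stayed highest in both libraries, at 45.1% and 41.9%. The table holds 1 value per gene, so the many spliced forms of each tropomyosin were not resolved.

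FLNA, a filamin, and both measured alpha-actinins were lower. FLNA was at 267.0 FPKM in shControl and 210.1 FPKM in shJAM3, a ratio of 0.787 (0.776 to 0.798). GC centring brought FLNA, at 62.2% GC, from -0.34 to -0.04 on the log2 scale.

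ACTN1, an alpha-actinin of focal adhesions and stress fibres, was at 42.7 FPKM in shControl and 34.1 FPKM in shJAM3, a ratio of 0.799 (0.772 to 0.827). ACTN4, the more abundant form, was at 135.9 FPKM in shControl and 119.3 FPKM in shJAM3, a ratio of 0.878 (0.856 to 0.900). As with FLNA, the alpha-actinin with the GC-rich transcript lost its difference on centring (ACTN4, at 58.6% GC, to 0.02) and the other kept it (ACTN1, at 49.9% GC, at -0.32). Of the ACTN4 exon bases, 14.2% lie opposite CAPN12. Relative to the actins, alpha-actinins went from 0.103 to 0.0936 by FPKM, a factor of 0.910 (0.890 to 0.931).

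Of the ERM proteins, MSN (moesin) was the most abundant and was the same within counting error, at 145.2 FPKM in shControl and 144.6 FPKM in shJAM3, a ratio of 0.996 (0.973 to 1.02) and a centred log2 ratio of -0.01. EZR (ezrin), the form typical of epithelial microvilli, was at 62.9 FPKM in shControl and 51.6 FPKM in shJAM3, a ratio of 0.821 (0.781 to 0.864). RDX (radixin) was at 14.8 FPKM in shControl and 12.9 FPKM in shJAM3, a ratio of 0.874 (0.820 to 0.932). After GC centring RDX, with 38.6% GC, was the lowest of the 3 at -0.41, and EZR stood at -0.23. The share of MSN in the summed ERM FPKM went from 65.2% to 69.1%.

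In all, 22 pairs of related members were compared by the ratio of their fragment ratios, and the counting interval excluded 1 for 15 of them. Several genes stand in more than 1 pair, and pairs of unrelated genes were not compared. Among single genes, intervals lay above 1 for 34.5% and below 1 for 36.8% of measured protein-coding genes, and for 43.2% and 48.6% of members. Besides ARPC1A and ARPC1B, factors above 1.5 or below its inverse were seen for TMSB10 and TMSB4X, CFL2 and CFL1, and PFN2 and PFN1. These factors are free of library scaling and gene length, but they carry the GC difference within a pair. Centred log2 ratios were closer together for PFN2 and PFN1 (0.76 and 0.50) and for CFL2 and CFL1 (0.27 and 0.11). TMSB10 and TMSB4X (0.25 and -0.46) and ARPC1A and ARPC1B (0.29 and -0.49) stayed further apart. The intervals cover counting error only, with no spread between cultures.

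The 25 members below a mean of 1 FPKM summed to 3.35 FPKM in shControl and 2.56 FPKM in shJAM3. They were the remaining myosin heavy chains (10) and light chains (7), several of them known from striated muscle, with ACTN2, ACTN3, FLNC, ACTR3C, ARPC4-TTLL3, TMSB15A and both TMSB15B rows. The highest was ACTN3, the alpha-actinin of fast muscle fibres, at 0.851 FPKM in shControl and 0.324 FPKM in shJAM3, followed by MYH8, the perinatal heavy chain, at 0.506 FPKM in shControl and 0.457 FPKM in shJAM3. The lowest measured member, ARPC1B, had a mean of 1.91 FPKM. The 10 low heavy chains together had 155 and 165 fragments, and MYH11, the smooth muscle heavy chain, 27 and 18. Of the 7 low light chains, MYL1, MYL3, MYL4, MYL7 and MYL10 had no fragment. With 3 fragments as the limit for a count of 0, their levels could have been up to 0.185 FPKM in shControl and 0.170 FPKM in shJAM3.

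Marker genes bear on what cells these are. The epithelial keratins KRT8 and KRT18 were at 138.6 and 144.8 FPKM in shControl and at 153.3 and 165.2 FPKM in shJAM3. KRT7, another epithelial keratin, was at 140.3 and 93.4 FPKM. Of the ovarian carcinoma markers, MUC16 was at 0.475 and 1.07 FPKM, FOLR1 was at 845.3 and 1012.1 FPKM and MSLN at 197.5 and 126.7 FPKM, while PAX8 was at 1.12 and 0.527 FPKM, EPCAM stayed under 1 FPKM and WT1 had 1 and 0 fragments. Of 14 muscle markers 7, among them MYOD1, MYOG and MYF5, had no fragment in either library, and the whole list summed to 52.4 and 43.6 FPKM. The muscle genes TNNT1, ACTC1 and DES were at 30.2, 14.2 and 7.11 FPKM in shControl and at 28.9, 9.73 and 4.26 FPKM in shJAM3. The smooth muscle list summed to 10.1 and 6.84 FPKM, mostly DES, with SMTN at 1.69 and 1.43 FPKM and CNN1 and ACTG2 at 0. The leukocyte list summed to 2.81 and 1.41 FPKM, mostly CD14 at 2.28 and 0.763 FPKM, with PTPRC at 0. The endothelial list summed to 0.482 and 0.405 FPKM, mostly CDH5 at 0.396 and 0.345 FPKM, with KDR at 0.

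Genes that act on the same filaments were read as lists, beside measured protein-coding genes as a whole, of which 49.4% were higher and 50.6% lower, 5.12% at least 1.5-fold higher and 9.3% at least 1.5-fold lower. Of 23 measured nucleation promoting factors and formins, which start filaments or switch on Arp2/3, 1 was at least 1.5-fold higher and 3 lower, with a median log2 ratio of -0.22 (-0.19 GC-centred). CYFIP2, a subunit of the WAVE complex, was at 0.887 FPKM in shControl and 1.87 FPKM in shJAM3. The lower ones were the formin INF2 (ratio 0.639) and the nucleators SPIRE1 (0.612) and SPIRE2 (0.603). SPIRE1 stood at -0.74 after centring, while INF2 and SPIRE2 went to -0.25 and -0.31.

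Capping, severing and depolymerising factors were balanced. Of 24 measured, 12 were higher and 12 lower, 1 and 2 of them past 1.5-fold, with a median of -0.01. LIMK1 and TESK1, kinases that switch cofilin off by phosphorylation, were the lower members furthest from 1. LIMK1 was at 8.73 FPKM in shControl and 4.51 FPKM in shJAM3, a ratio of 0.516 (0.463 to 0.575). TESK1 was at 6.55 FPKM in shControl and 3.00 FPKM in shJAM3, a ratio of 0.458 (0.377 to 0.553). GMFB, of the cofilin fold and able to take apart Arp2/3 branches, was 1.92-fold (1.67 to 2.21) higher. After GC centring LIMK1 stayed past 1.5-fold at -0.74 on the log2 scale, while TESK1 went from -0.92 to -0.42 and GMFB from 0.72 to 0.49.

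Of 23 measured genes that control contractility, 16 were lower and 7 higher, against 50.6% and 49.4% of all. The median was -0.14 (-0.18 GC-centred), and 1 gene passed 1.5-fold, on the lower side, where 9.3% of all did. That was ARHGAP35 (p190A RhoGAP, which turns RhoA off), at 19.3 FPKM in shControl and 11.8 FPKM in shJAM3, a ratio of 0.611 (0.578 to 0.645). The myosin chaperone UNC45A, which folds myosin heads, was at 24.8 FPKM in shControl and 16.5 FPKM in shJAM3, a ratio of 0.666 (0.629 to 0.705) and a centred log2 ratio of -0.35. ARHGEF2 and ARHGEF1, activators of RhoA, had ratios of 0.688 and 0.732, the second close to its GC group at -0.04.

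Actin binding and bundling genes had a lower median, -0.32, which was -0.13 after GC centring. Of 22 measured, 4 were at least 1.5-fold lower, against 9.3% of all, and none was 1.5-fold higher, against 5.12%. CNN3, a calponin, was at 37.2 FPKM in shControl and 20.8 FPKM in shJAM3, a ratio of 0.559 (0.516 to 0.606). SVIL (supervillin), which binds both actin and myosin II, had a ratio of 0.581 (0.534 to 0.632). VASP, which elongates filaments, had a ratio of 0.587 (0.560 to 0.615), and the membrane motor MYO1E was at 140.8 FPKM in shControl and 85.3 FPKM in shJAM3, a ratio of 0.606 (0.593 to 0.620). Their centred log2 ratios were -0.93, -0.70, -0.55 and -0.80.

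Many actomyosin genes are classical targets of serum response factor (SRF) and its actin-sensing cofactors, the myocardin-related factors MRTFA and MRTFB. A list of these factors and of classical targets that are not members held 12 measured genes, SRF, MRTFA and MRTFB among them. Of the 12, 11 were lower, these factors included, and 1 was higher. The median was -0.37 (-0.32 GC-centred) against -0.01 for all measured protein-coding genes. The list was chosen with earlier results of these data known, some of its genes among them, so its direction is no independent evidence. MRTFA was at 9.59 FPKM in shControl and 4.72 FPKM in shJAM3, a ratio of 0.492 (0.441 to 0.548) and a centred log2 ratio of -0.59. SRF was at 24.8 FPKM in shControl and 16.8 FPKM in shJAM3, a ratio of 0.678 (0.629 to 0.732). GC centring brought SRF from -0.53 to -0.23 on the log2 scale. MRTFB had a ratio of 0.839 (0.728 to 0.967) and a centred log2 ratio of -0.31. VCL (vinculin) had a ratio of 0.639 (0.617 to 0.661), whereas the early response gene EGR1 was 1.55-fold (1.46 to 1.64) higher. Their centred log2 ratios were -0.75 and 0.70. Past 1.5-fold were 1 higher gene, EGR1, and 2 lower ones, the factor MRTFA and the target VCL.

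SRF binds the CArG box, and its letters were looked for in the RefSeq promoter windows of 32 of the 37 measured members. The box stood in 4 of the 49 windows of measured members (8.16%), against 1.16% of 12191 windows of measured protein-coding genes and 1.29% of all 35116. A box also stood before MYL7, which had no fragment. The 4 sites of measured members are shown because the 4 genes can be read against them, each as 30 bases of GRCh38.p14, 5′ to 3′ on the gene's strand, with the box in capitals:
ACTG1, chr17:81512874-81512903, minus strand: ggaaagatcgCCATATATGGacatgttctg
FLNA, chrX:154374709-154374738, minus strand: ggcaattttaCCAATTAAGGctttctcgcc
TPM4, chr19:16067355-16067384, plus strand: aatcctaggtCCAAATAAGGcgagggctgc
ACTN1, chr14:68977718-68977747, minus strand: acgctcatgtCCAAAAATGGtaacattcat

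The box began 94 bases before the start in ACTG1 and FLNA, 173 before it in TPM4 and 171 before it in ACTN1. For ACTG1, TPM4 and ACTN1 the start lies inside the annotated gene. The ACTG1 site also lies in an annotated exon of that gene, and the FLNA site in an exon of an antisense RNA. These 4 genes had ratios of 0.862, 0.787, 1.06 and 0.799 and centred log2 ratios of 0.00, -0.04, 0.01 and -0.32, so ACTN1 was the one away from the median of genes of like GC. The TEAD-type letters GGAATG, on either strand, stood in 10.2% of the members' windows and 11.3% of those of measured protein-coding genes. For ACTB, MYL9, PFN2 and ARPC1B no window was used.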

How the data were processed

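Gene-level FPKM for 58735 genes in 2 libraries were deposited by the authors in 1 table; per the submitters' processing notes, tools included fastp, HISAT2 2.0.5 and featureCounts 1.5.0-p3, with no roles given, and the sources used here do not give the build. All coordinates and lengths matched GENCODE 29 (GRCh38), each length being the union of exons. Multiplied by length and divided by the smallest step in its library, 100% of FPKM above 0 were whole numbers (tolerance 0.001), the fragments used here. The implied library sizes were 0.987 and 1.014 times the recovered totals, so the deposited FPKM carry a further scaling of unstated method. Log2 ratios used FPKM + 1. Intervals are exact 95% conditional binomial for single genes and log-normal for sums and pairs; they do not cover PCR duplicates. GC and length of the longest transcript were centred in 20 bins. Some older symbols were matched through RefSeq (GRCh38.p14). Promoter sequences are RefSeq's, matched by symbol for 49 of 61 member symbols. Python 3.11.15, scipy 1.17.1 and pandas 2.3.3 were used. The size rule and intervals were tested on simulated counts with counting error only, which hold no spread between cultures and no GC trend.

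The members and lists were chosen with earlier results of these data known. Every measured member was named except 1 that is not reported here, with at most the 4 genes of each list furthest from no difference; MRTFB, the marker genes and neighbouring genes were named besides. The alternatives were another pseudocount, other scalings and filters, GC centring and the counting interval as a condition; transcript length was added after seeing the data.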

Additional observations from a re-analysis of the deposited data

How the results depend on the processing

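The count of 1 member at least 1.5-fold higher was the same under all 8 alternatives, but was 2 without any added FPKM. The count of 4 lower members became 0 with GC centring and 2 among members with a mean of at least 5 FPKM, which leaves out MYH14 and ARPC1B. With the pseudocount of 0.1 FPKM the count was 5, MYH10 being added, and 1 member, ARPC1B, lay past 2-fold lower. The median log2 ratio of the members went from -0.07 to 0.01 with GC centring and to 0.02 at a mean of at least 5 FPKM. GC centring moved 25 of 37 members beyond their counting interval, by up to 0.38. It took ACTN4, ARPC5L, CFL1 and MYL6B from lower to higher and brought ACTG1 to 0.00. Scaling to total fragments moved every member up by at most 0.04. Centring on transcript length, chosen after seeing the data, moved 10 members beyond their interval by up to 0.12. No member past 1.5-fold changed its direction under any of these. Levels compared between genes depend on the annotated exon union, which was 1.00 to 3.25 times the longest transcript. No paired analysis was possible because each group had 1 library.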
